A study of Mus musculus with 36 samples.

Results

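Trp53, which encodes the transcription factor p53, was followed together with 9 genes that p53 is known to switch on, namely Cdkn1a, Ccng1, Eda2r, Sesn2, Bax, Zmat3, Gdf15, Trp53inp1 and Phlda3. These 10 genes were chosen by symbol, through the Ensembl mouse gene identifiers of the deposited expression table, out of 52505 genes in that table. All 10 averaged 1 FPKM or more over the libraries and so were tested, as were 12961 genes in all. FPKM is the number of sequenced fragments per kilobase of gene length and scaled to sequencing depth, so levels can be compared between genes.

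The cells were 3T3-L1, a mouse embryonic fibroblast line that forms fat cells when given an adipogenic cocktail, here dexamethasone, isobutyl-methylxanthine (IBMX), insulin and indomethacin (the labels call it MDI). Total RNA was sequenced from cells labelled zfp217-/- (KO) and from cells labelled wild type (WT), each at day 0 and at day 2 of the cocktail. The 4 groups were thus KO day 0, WT day 0, KO day 2 and WT day 2, with n = 3 libraries each and 12 libraries in all. The labels do not say how the knockout was made, whether the KO cells are 1 clone or a pool, or whether each library had a culture of its own. The p-values therefore measure the spread between these libraries, which may be technical, and a difference between KO and WT cannot be told apart from a difference between 2 cell populations.

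p53 is held at a low level in unstressed cells by Mdm2, a ubiquitin ligase that marks it for destruction and is itself a p53 target. DNA damage, oncogene activity and other stresses free p53 mostly by stabilising the protein, so the level of Trp53 mRNA and the activity of p53 need not move together. Once active, p53 binds a DNA site made of a pair of half-sites and switches on genes that stop the cell cycle, start cell death, repair damage or alter metabolism. In fibroblast lines of the 3T3 kind, growth arrest by p21 and escape from it are the best known outcomes, and preadipocytes pass through a few cell divisions early in the cocktail before they become fat cells.

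The DNA before the start of 4 of the genes is shown, because 3 of them hold a full p53 consensus site there and the 4th, Eda2r, had the largest KO to WT ratio of the 10 genes without one in its window. Each sequence is the 250 bases before an annotated RefSeq start, in build GRCm38.p6, written 5′ to 3′ on the strand of the gene, and capitals mark the p53 site. For Ccng1, Bax and Eda2r that start lies slightly inside the gene span given further below, so the sequence overlaps the edge of the span. Distances to the start are counted from the start used here.
Cdkn1a (chr17:29090729-29090978, plus strand): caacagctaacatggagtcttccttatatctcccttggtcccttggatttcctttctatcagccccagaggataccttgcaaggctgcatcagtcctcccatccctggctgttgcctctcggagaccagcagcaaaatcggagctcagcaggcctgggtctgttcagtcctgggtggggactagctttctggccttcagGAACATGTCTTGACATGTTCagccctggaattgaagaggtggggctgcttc
Ccng1 (chr11:40755287-40755536, minus strand): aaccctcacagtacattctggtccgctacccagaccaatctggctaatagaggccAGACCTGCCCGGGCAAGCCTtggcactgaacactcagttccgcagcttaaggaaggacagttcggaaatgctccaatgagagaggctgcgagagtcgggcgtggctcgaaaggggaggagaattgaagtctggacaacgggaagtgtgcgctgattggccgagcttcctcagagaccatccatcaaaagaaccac
Bax (chr7:45466899-45467148, minus strand): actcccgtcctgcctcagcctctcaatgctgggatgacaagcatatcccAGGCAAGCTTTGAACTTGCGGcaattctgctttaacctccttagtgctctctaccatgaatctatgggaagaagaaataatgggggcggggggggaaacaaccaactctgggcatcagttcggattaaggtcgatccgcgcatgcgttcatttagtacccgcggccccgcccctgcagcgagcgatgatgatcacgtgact
Eda2r (chrX:97377210-97377459, minus strand): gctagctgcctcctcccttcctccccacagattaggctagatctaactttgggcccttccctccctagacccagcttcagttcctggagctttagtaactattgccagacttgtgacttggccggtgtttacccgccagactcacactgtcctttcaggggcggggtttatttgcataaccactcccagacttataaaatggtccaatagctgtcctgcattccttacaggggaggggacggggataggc

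The site searched was 2 copies of the 10-base p53 consensus half-site with a spacer of up to 13 bases and up to 2 mismatches outside the fixed C and G, on both strands, in windows of 300 bases (250 before to 50 after the start). The half-site is its own reverse complement in consensus, so both strands give the same matches. Where several overlapping arrangements matched, the capitals show the one with the shortest spacer. The Cdkn1a site had a spacer of 0 bases and 1 mismatch, and began 51 bases before the upstream of 2 annotated Cdkn1a starts, which is 2841 bases before the other. The Ccng1 site had a spacer of 0 bases and 1 mismatch, 195 bases before the start. The Bax site had a spacer of 1 base and 2 mismatches, 201 bases before the start.

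Of the 10 genes, 8 had at least 1 window, and 3 of these 8 held such a full site. Among 27025 genes with a window, 4.71% held one, and among 32851 windows 4.09% did. At up to 1 mismatch, 2 of the 8 genes held a site, against 0.718% of all genes with a window. An exact half-site was present in 4 of the 8, against 9.55% of all genes, and the one in the Trp53 window stood alone. Of 39 other p53 target genes with a window, 3 held a full site. A match is a stretch of letters, not a bound site, and sites outside the windows were not searched.

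The libraries held 18073258 to 23114994 reads each, recovered from the steps of the FPKM values. Gdf15 was read thinly, with 21 to 67 reads per library, while each of the other 9 genes had 174 to 7910. Zfp217 mRNA, which the labels give as the targeted gene, was not lower in the KO libraries: it averaged 26.0 ± 0.883 FPKM in KO day 0 and 22.0 ± 0.279 FPKM in WT day 0, and 22.6 ± 0.858 FPKM in KO day 2 against 15.1 ± 0.369 FPKM in WT day 2 (SD, n = 3 each). The labels do not give the altered part of the gene, so its summed mRNA does not check the genotype, and "KO" here stands for the label. WT day 0 replicate 3 stood apart, with 23 genes at least 4-fold away from both other libraries of its group, where the other 11 libraries had 1 to 6 such genes. In it mt-Rnr1, a ribosomal RNA of mitochondria, reached 264 FPKM. KO day 0 libraries had 379 to 396 FPKM of it, against 7.01 and 5.87 FPKM in the other WT day 0 libraries. In WT day 0 replicate 3 the heat shock gene Hsp90aa1 reached 886 FPKM. It was at 27.2 and 28.5 FPKM in the other WT day 0 libraries and at 174 to 178 FPKM in KO day 0. None of the counts of members that passed the test changed without that library.

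The summed levels of several marker lists moved with the groups. The summed level of 8 preadipocyte and fibroblast markers was 19056 to 19652 FPKM in KO day 0 and 5656 to 5857 FPKM in WT day 0, and it was 4451 to 4649 FPKM in KO day 2 and 722 to 735 FPKM in WT day 2. That sum was mainly the collagen genes Col1a1 and Col3a1 in every group. At day 0 Cd34 went the other way, at 0.233 to 0.328 FPKM in KO and 3.84 to 4.11 FPKM in WT. Thy1 differed little then, at 531 to 549 FPKM in KO and 508 to 528 FPKM in WT, while Pdgfra, Pdgfrb, Dlk1 and Ly6a were higher in KO. The summed level of 6 fat cell markers was 190 to 199 FPKM in KO day 0 and 55.4 to 59.6 FPKM in WT day 0, against 288 to 301 FPKM in KO day 2 and 6634 to 6811 FPKM in WT day 2. At day 0 nearly all of that sum was Lpl, at 188 to 195 FPKM in KO and 53.5 to 58.1 FPKM in WT, while Adipoq, Plin1, Cd36 and Retn were each at most 0.595 FPKM and Fabp4 at most 3.56 FPKM. The 4 chondrocyte markers summed to 22.3 to 25.2 FPKM in KO day 0 and 27.3 to 30.3 FPKM in WT day 0, and to 30.7 to 34.03 FPKM in KO day 2 and 6.77 to 7.17 FPKM in WT day 2. That sum was mainly Sox9 and Comp, with Acan listed at 0 throughout and Col2a1 at most 0.346 FPKM. The 4 epithelial, 4 endothelial and 4 skeletal muscle markers each summed to at most 1.10 FPKM in every library, and Epcam was listed at 0 throughout. Of 6 macrophage markers, Adgre1 was at most 0.0330 FPKM and Ptprc at most 0.199 FPKM, and the sum of the list (26.8 to 27.9 FPKM in KO day 0, 12.1 to 13.6 FPKM in WT day 0, 12.2 to 13.4 FPKM in KO day 2 and 6.22 to 7.79 FPKM in WT day 2) was made up mainly of Lyz2, Cd14 and Cd68. The part of these marker differences in the results below was not tested. In bulk RNA, fewer cells of a kind and less RNA per cell cannot be told apart.

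**Figure D1:**
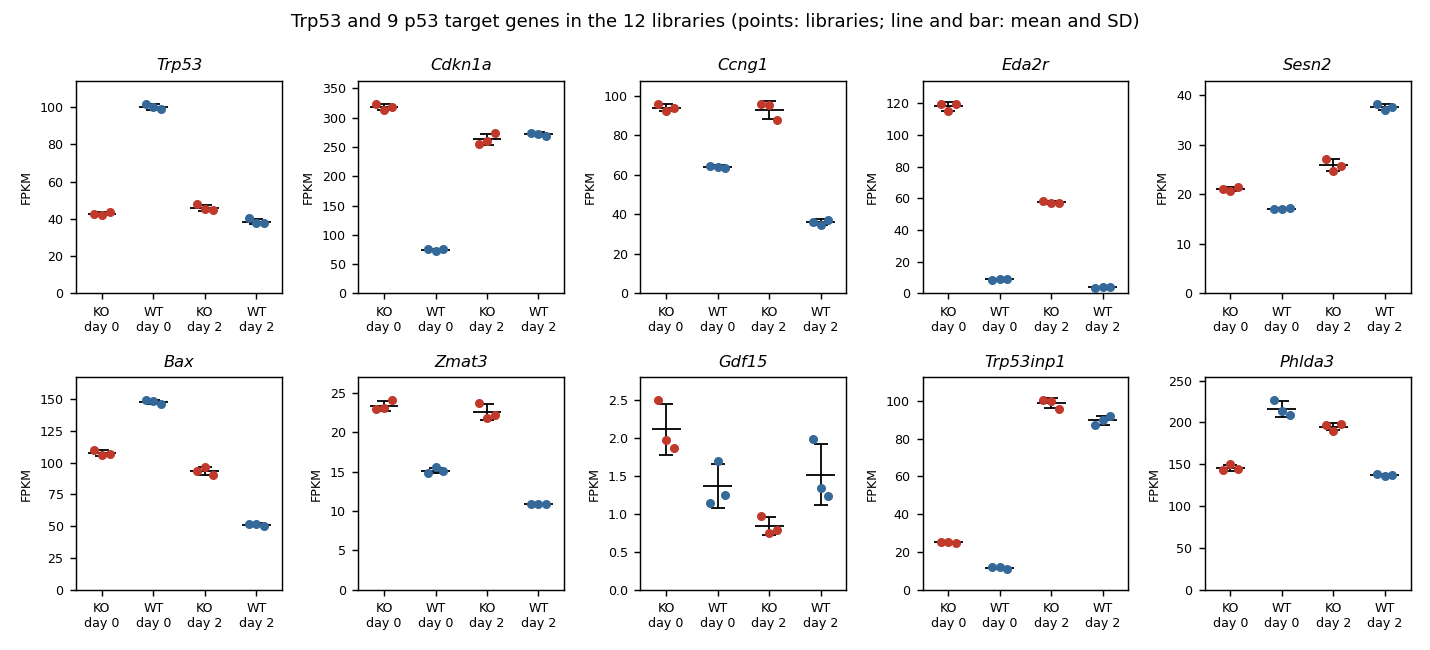
Level of Trp53 and the 9 target genes in each library (y axis, FPKM from 0; x axis, the groups KO day 0, WT day 0, KO day 2 and WT day 2). Points are libraries, lines and bars the mean and SD of n = 3. Trp53 peaks in WT day 0, where Cdkn1a is lowest, and Eda2r is high in both KO groups.

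Trp53 mRNA was lower in KO than in WT before the cocktail and slightly higher at day 2. At day 0 it was at 42.4, 42.2 and 43.7 FPKM in the KO libraries, against 102, 99.9 and 98.7 FPKM in the WT libraries. At day 2 it was at 47.8, 45.1 and 44.5 FPKM in KO, against 40.3, 37.8 and 37.6 FPKM in WT. The 3 WT day 0 libraries stood above the other 9, and the KO and WT values did not overlap at either day. The difference on the log2(FPKM + 1) scale was -1.21 at day 0 (SE 0.0342, adjusted p = 1.32e-11), a 2.34-fold lower mean in KO. At day 2 it was 0.24 (SE 0.0342, adjusted p = 3.44e-05), a 1.19-fold higher mean in KO. These and all other tests between groups are from limma over all 12961 genes, 2-sided, with Benjamini-Hochberg adjustment and a threshold of 0.05.

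Of the 10 genes, 7 were higher and 3 lower in KO at day 0. Among all 12961 tested genes, 82.4% passed the test at day 0, 38.3% higher and 44.2% lower, so passing it sets no gene apart, and sizes are given beside each call. The KO and WT values did not overlap for 10 of the 10 genes, nor for 84.0% of all tested genes. At day 2, 7 of the 10 were higher, 2 were lower and Cdkn1a did not pass, where 81.4% of all tested genes passed, 40.8% higher and 40.6% lower. The groups did not overlap at day 2 for 9 of the 10 and for 82.2% of all genes. The median difference of the 10 was 0.47 at day 0 and 0.37 at day 2 on the log2 scale, beside -0.06 and 0.00 for all tested genes.

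The 3 members at least 2-fold higher in mean FPKM at day 0 were Eda2r, Cdkn1a and Trp53inp1, where 14.1% of all genes were. At day 2 they were Eda2r, Ccng1 and Zmat3, where 17.4% of all genes were. Trp53 was the only member at least 2-fold lower at day 0, like 14.6% of all genes, and 0 of the 10 were at day 2, where 14.5% of all genes were. Of the 10 genes, 4 were higher in KO at both days (Ccng1, Eda2r, Zmat3 and Trp53inp1). Another 3 were lower at day 0 and higher at day 2 (Trp53, Bax and Phlda3), and 2 were higher at day 0 and lower at day 2 (Sesn2 and Gdf15).

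**Figure D2:**
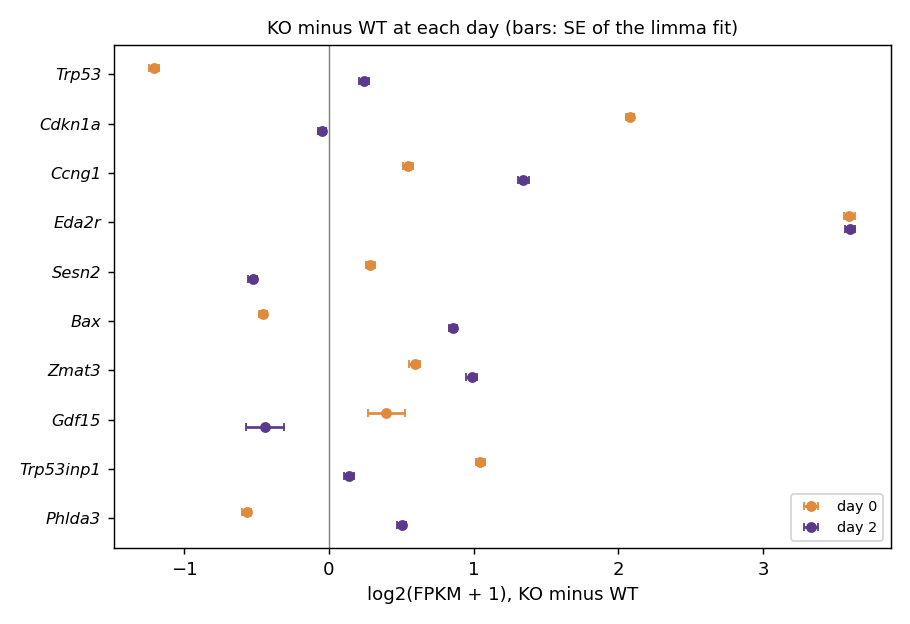
KO minus WT difference of each of the 10 genes in log2(FPKM + 1) (x axis) at day 0 and day 2, with SE bars from the limma fit. Eda2r lies at 3.60 at both days, while Trp53, Bax and Phlda3 lie below 0 at day 0 and above 0 at day 2.

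Cdkn1a and Ccng1, the members that act on the cell cycle, were both higher in KO at day 0. Cdkn1a encodes p21, the inhibitor of cyclin-dependent kinases through which p53 stops cells before DNA synthesis. It was at 324, 314 and 318 FPKM in KO day 0, against 74.9, 72.7 and 75.9 FPKM in WT day 0. That is 4.28-fold more in KO (log2 difference 2.08, SE 0.0273, adjusted p = 2.6e-14). In the day 2 libraries it stood at 255, 260 and 273 FPKM in KO, against 274, 273 and 268 FPKM in WT. The day 2 values overlapped, and the log2 difference of -0.05 (SE 0.0273, adjusted p = 0.132) had a 95% interval of -0.11 to 0.01. This difference passed without KO day 2 replicate 3 (-0.08, adjusted p = 0.0147) and turned to 0.21 (adjusted p = 1.7e-05) after quantile normalization, so its direction depended on the setting.

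Ccng1 encodes cyclin G1, which works with protein phosphatase 2A and feeds back on Mdm2. It was at 95.9, 92.1 and 93.9 FPKM in KO day 0, against 64.6, 64.1 and 63.2 FPKM in WT day 0 (1.47-fold higher; log2 difference 0.55, SE 0.0371, adjusted p = 3.96e-08). Day 2 levels were 95.9, 95.2 and 87.7 FPKM in KO, against 36.3, 34.5 and 37.3 FPKM in WT (2.58-fold higher; log2 difference 1.34, SE 0.0371, adjusted p = 8.57e-12). All 6 KO libraries were above all 6 WT libraries. The 3 genes with a full p53 site in the printed sequence did not share a pattern: Cdkn1a and Ccng1 were higher in KO at day 0, and Bax was lower.

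The genes of cell death were split. Eda2r encodes the ectodysplasin A2 receptor, a member of the TNF receptor family that p53 induces. Its values were 120, 115 and 120 FPKM in KO day 0, against 8.63, 9.11 and 8.79 FPKM in WT day 0. At day 2 they were 58.6, 57.3 and 56.9 FPKM in KO, against 3.70, 4.10 and 3.71 FPKM in WT. Every KO library was thus above every WT library at both days. The mean was 13.3-fold higher in KO at day 0 (log2 difference 3.60, SE 0.0368, adjusted p = 5.26e-15) and 15-fold higher at day 2 (log2 difference 3.60, SE 0.0368, adjusted p = 2.5e-15). Its locus on the X chromosome overlaps the predicted gene Gm18111 in RefSeq, and the strand setting of the counting is not given in the sources used here.

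Bax encodes a pore-forming protein of the Bcl2 family that opens the outer mitochondrial membrane. It was at 110, 106 and 106 FPKM in KO day 0, against 149, 148 and 146 FPKM in WT day 0, a 1.37-fold lower mean in KO (log2 difference -0.46, SE 0.0274, adjusted p = 1.29e-08). After 2 days it was at 93.4, 96.5 and 90.6 FPKM in KO, against 52.0, 51.5 and 50 FPKM in WT, a 1.83-fold higher mean in KO (log2 difference 0.86, SE 0.0274, adjusted p = 3.27e-11). The 4 groups did not overlap. Phlda3 encodes a pleckstrin homology domain protein that competes with the kinase Akt for membrane lipids and so restrains survival signalling. It was at 143, 150 and 144 FPKM in KO day 0, against 227, 214 and 209 FPKM in WT day 0 (1.49-fold lower in KO; log2 difference -0.57, SE 0.0311, adjusted p = 5.37e-09). Its day 2 levels were 196, 190 and 198 FPKM in KO, against 138, 136 and 137 FPKM in WT (1.42-fold higher in KO; log2 difference 0.50, SE 0.0311, adjusted p = 1.6e-08).

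Trp53inp1 and Zmat3, which act with p53 or on RNA, were higher in KO at both days. Trp53inp1 encodes a stress-induced protein that promotes p53 phosphorylation and autophagy. It was at 25.2, 25.3 and 24.6 FPKM in KO day 0, against 11.8, 11.9 and 11.1 FPKM in WT day 0 (2.15-fold higher; log2 difference 1.04, SE 0.0319, adjusted p = 2.53e-11). In the day 2 libraries it stood at 100.3, 100.0 and 95.7 FPKM in KO, against 87.2, 89.5 and 91.9 FPKM in WT (1.1-fold higher; log2 difference 0.14, SE 0.0319, adjusted p = 0.00169). The day 2 groups were close but did not overlap. Zmat3 encodes a zinc finger protein that binds RNA and alters splicing and mRNA stability; its locus overlaps 4930429B21Rik. It was at 22.9, 23.1 and 24.1 FPKM in KO day 0, against 14.8, 15.5 and 15.1 FPKM in WT day 0 (1.54-fold higher; log2 difference 0.59, SE 0.0367, adjusted p = 1.69e-08). Day 2 levels were 23.8, 21.8 and 22.3 FPKM in KO, while the 3 WT libraries were at 10.9 FPKM each (2.07-fold higher; log2 difference 0.99, SE 0.0367, adjusted p = 1.32e-10).

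Sesn2 and Gdf15, which answer to amino acid and mitochondrial stress as well as to p53, were higher in KO at day 0 and lower at day 2. Sesn2 encodes sestrin 2, a leucine sensor that restrains the growth kinase complex mTORC1. It was at 21.1, 20.6 and 21.5 FPKM in KO day 0, against 17.1, 16.9 and 17.2 FPKM in WT day 0 (1.23-fold higher; log2 difference 0.29, SE 0.0335, adjusted p = 6.42e-06). Its day 2 levels were 27.1, 24.7 and 25.7 FPKM in KO, against 38.3, 37.1 and 37.7 FPKM in WT (1.46-fold lower; log2 difference -0.53, SE 0.0335, adjusted p = 2.03e-08). The groups did not overlap at either day.

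Gdf15 encodes a secreted stress cytokine of the TGF-beta family. It was at 2.50, 1.97 and 1.87 FPKM in KO day 0, against 1.14, 1.70 and 1.25 FPKM in WT day 0 (log2 difference 0.40, SE 0.13, adjusted p = 0.014). After 2 days it was at 0.976, 0.754 and 0.792 FPKM in KO, against 1.98, 1.34 and 1.23 FPKM in WT (log2 difference -0.44, SE 0.13, adjusted p = 0.00805). At these levels the added 1 FPKM understates the ratio of the means, which was 1.55-fold higher and 1.8-fold lower in KO. The day 0 call was lost without KO day 0 replicate 1 (0.31, adjusted p = 0.0614), without WT day 0 replicate 1 (0.33, adjusted p = 0.0564) and after quantile normalization (0.25, adjusted p = 0.101).

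In build GRCm38.p6, with which mm10 shares its coordinates, Trp53 lies at chr11:69580348-69591873 and Ccng1 at chr11:40748552-40755309. Cdkn1a lies at chr17:29090979-29100722, Eda2r at chrX:97333837-97377234 and Bax at chr7:45461695-45466903. Phlda3 lies at chr1:135766085-135769134 and Zmat3 at chr3:32334792-32365665. Trp53inp1 and Sesn2 lie on chromosome 4, at chr4:11156441-11174379 and chr4:132492804-132510456. Gdf15 lies at chr8:70629393-70632470, and the 675 tested genes of chromosome 8 had a median KO minus WT difference that was 0.42 above that of all tested genes at day 0 and 0.40 above it at day 2, on the log2 scale. For the 430 tested genes of the X chromosome, which holds Eda2r, the median lay 0.12 above that of all genes at day 0 and 0.24 above it at day 2. For chromosome 4, which holds Sesn2 and Trp53inp1, the shift of the median from that of all genes was -0.11 (day 0) and -0.12 (day 2). The chromosomes of the other 6 members (1, 3, 7, 11 and 17 with Trp53 and Ccng1 both on 11) lay within -0.06 to 0.08 of all genes at both days. The part of a chromosome-wide difference in any single gene was not tested.

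The estimated day response was smaller in size in KO cells than in WT cells, by more than 0.1 on the log2 scale, for 8 of the 10 genes. The share of all tested genes with a smaller response in KO was not computed, so this count does not set the 10 apart. Eda2r and Gdf15 were the members outside the 8. In KO, 4 of the 10 were higher at day 2 than at day 0, 4 were lower and Ccng1 and Zmat3 did not pass, where 72.7% of all tested genes passed, 33.9% higher and 38.8% lower. In WT, 3 were higher, 6 were lower and Gdf15 did not pass, where 80.7% of all genes passed, 34.2% higher and 46.5% lower. The median of the 10 was -0.03 in KO and -0.55 in WT on the log2 scale, beside -0.03 and -0.11 for all genes. The day 2 and day 0 values did not overlap for 8 of the 10 genes in KO (74.8% of all genes) and for 9 of the 10 in WT (82.2% of all genes). At least 2-fold higher were 1 gene in KO (Trp53inp1; 8.03% of all genes) and 3 in WT (Cdkn1a, Sesn2 and Trp53inp1; 12%). At least 2-fold lower were 2 genes in KO (Eda2r and Gdf15; 9.68%) and 3 in WT (Trp53, Eda2r and Bax; 19.2%). Both comparisons share their libraries with the comparisons of KO with WT.

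In KO, Trp53 mRNA rose by 0.10 on the log2 scale over the 2 days (SE 0.0342, adjusted p = 0.025) and Cdkn1a fell by 0.28 (SE 0.0273, adjusted p = 2.11e-06). In WT, Trp53 mRNA fell 2.6-fold (log2 difference -1.35, SE 0.0342, adjusted p = 3.2e-12), while Cdkn1a rose 3.64-fold (1.85, SE 0.0273, adjusted p = 2.64e-14). The small rise of Trp53 in KO lost its call with TPM scaling (0.06, adjusted p = 0.161), with quantile normalization (0.07, adjusted p = 0.0768), and without KO day 0 replicate 1 (adjusted p = 0.0674), KO day 0 replicate 2 (adjusted p = 0.0729) or KO day 2 replicate 1 (adjusted p = 0.108). Trp53inp1 showed the largest day response of the 10 genes in both cell populations, 3.94-fold up in KO (1.94, SE 0.0319, adjusted p = 1.8e-13) and 7.7-fold up in WT (2.84, SE 0.0319, adjusted p = 2.73e-15). Eda2r fell in both, by 1.02 in KO (SE 0.0368, adjusted p = 1.83e-10) and by 1.03 in WT (SE 0.0368, adjusted p = 8.56e-11) on the log2 scale.

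Bax and Phlda3, the other members at over 100 FPKM in WT day 0, fell in WT. Bax fell by 0.20 in KO (adjusted p = 3.95e-05) and by 1.51 in WT (adjusted p = 1.63e-13; SE 0.0274 each). Phlda3 rose by 0.42 in KO (adjusted p = 1.6e-07) and fell by 0.65 in WT (adjusted p = 1.27e-09; SE 0.0311 each). Sesn2 rose in both, by 0.28 in KO (adjusted p = 1.07e-05) and by 1.10 in WT (adjusted p = 1.86e-11; SE 0.0335 each). Ccng1 fell by 0.81 (adjusted p = 8.45e-10) and Zmat3 by 0.44 (adjusted p = 2.91e-07) in WT. Gdf15 fell by 0.75 in KO (SE 0.13, adjusted p = 0.000249).

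**Figure D3:**
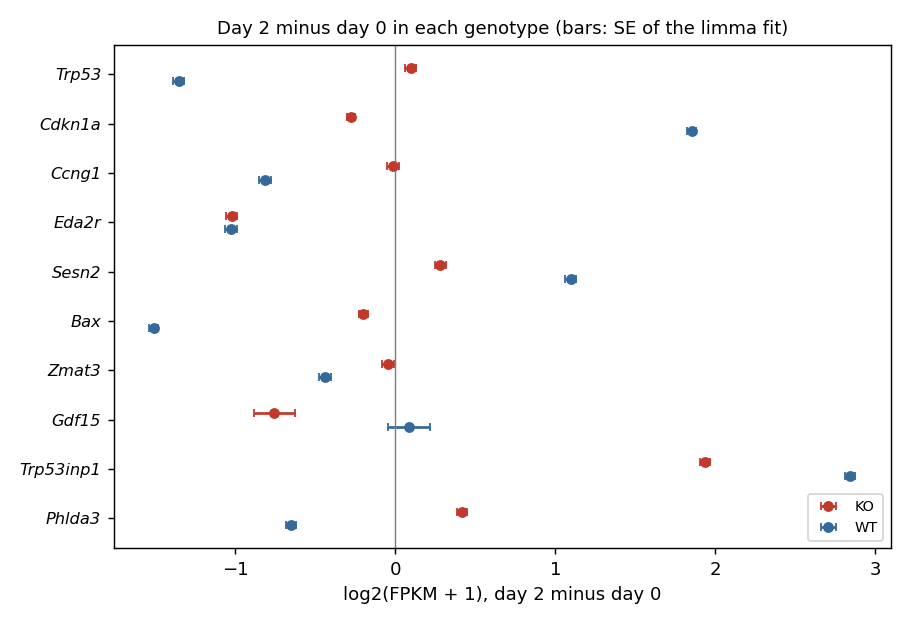
Day 2 minus day 0 in log2(FPKM + 1) (x axis) for each of the 10 genes in KO and in WT, with SE bars from the limma fit. Trp53 lies at 0.10 in KO and at -1.35 in WT, Cdkn1a at -0.28 in KO and at 1.85 in WT, and Eda2r falls by 1.02 in KO and by 1.03 in WT.

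The difference between the KO and the WT day response was tested as an interaction. It passed for 9 of the 10 genes, 5 with a higher response in KO (Trp53, Ccng1, Bax, Zmat3 and Phlda3) and 4 with a lower one (Cdkn1a, Sesn2, Gdf15 and Trp53inp1). Among all tested genes 73.8% passed, 40.8% higher and 33.0% lower. The estimates ran from -2.13 for Cdkn1a (SE 0.0386, adjusted p = 7.06e-13) to 1.45 for Trp53 (SE 0.0484, adjusted p = 1.03e-10). For Eda2r it was 0.00 (SE 0.052, adjusted p = 0.962), with a 95% interval of -0.11 to 0.12. That value depended on the scale: it was 0.15 (adjusted p = 0.0365) with 0.1 FPKM added in place of 1, and -0.34 (adjusted p = 6.2e-05) after quantile normalization.

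Ordered by level, Trp53 stood highest in WT day 0, then KO day 2, KO day 0 and WT day 2, and Phlda3 took the same order. Bax ran from WT day 0 over KO day 0 and KO day 2 to WT day 2. In these 3 genes no neighbouring groups overlapped. Cdkn1a ran from KO day 0 to WT day 2, KO day 2 and WT day 0, with WT day 2 and KO day 2 overlapping. Ccng1, Eda2r and Zmat3 all ran from KO day 0 over KO day 2 and WT day 0 to WT day 2, with the 2 KO groups overlapping for Ccng1 and Zmat3 and 30.8-fold between the ends for Eda2r. Trp53inp1 was highest in KO day 2, followed by WT day 2, KO day 0 and WT day 0, 8.49-fold from end to end. Sesn2 ran from WT day 2 to KO day 2, KO day 0 and WT day 0. For Gdf15 KO day 2 alone was apart from its neighbour, at the low end.

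The wider set of p53 targets was split too. Of 50 other known targets, 42 were tested. At day 0, 25 were higher in KO, 15 lower and 2 did not pass, where 38.3% of all genes were higher and 44.2% lower, with a median log2 difference of 0.25 beside -0.06 for all genes. At day 2 the counts were 25, 14 and 3, where 40.8% of all genes were higher and 40.6% lower, with a median of 0.39 beside 0.00. In the day response, 22 rose and 15 fell in KO, where 33.9% of all genes rose and 38.8% fell. In WT 21 rose and 18 fell, where 34.2% of all genes rose and 46.5% fell.

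Ephx1, the microsomal epoxide hydrolase, was at 210 ± 1.46 FPKM in KO day 0 and 66.0 ± 1.88 FPKM in WT day 0, and at 92.9 ± 1.37 FPKM in KO day 2 and 8.20 ± 0.300 FPKM in WT day 2. It was 3.18-fold higher in KO at day 0 (adjusted p = 1.87e-13) and 11.3-fold higher at day 2 (adjusted p = 7.19e-16). Plk2, a polo-like kinase, was 2.3-fold lower in KO at day 0 (adjusted p = 6.2e-12) and 4.28-fold higher at day 2 (adjusted p = 6.03e-14). Ak1, adenylate kinase 1, did not pass at day 0 (131 ± 2.65 FPKM in KO, 123 ± 4.06 FPKM in WT, adjusted p = 0.0523) and was 9.07-fold higher in KO at day 2 (adjusted p = 1.05e-14).

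Further targets were chosen after their values were seen. The death receptor gene Fas was at 17.0 ± 0.812 FPKM in KO day 0 and 6.58 ± 0.491 FPKM in WT day 0, and at 11.9 ± 0.954 FPKM in KO day 2 and 1.46 ± 0.292 FPKM in WT day 2. Bbc3, which encodes the death activator Puma, was 1.45-fold higher in KO at day 0 (adjusted p = 4.14e-06) and 1.7-fold higher at day 2 (adjusted p = 1.49e-07). Tigar, a fructose bisphosphatase that slows glycolysis, was 2.17-fold lower at day 0 (adjusted p = 1.46e-06) and 5.81-fold lower at day 2 (adjusted p = 2.91e-10).

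**Figure D4:**
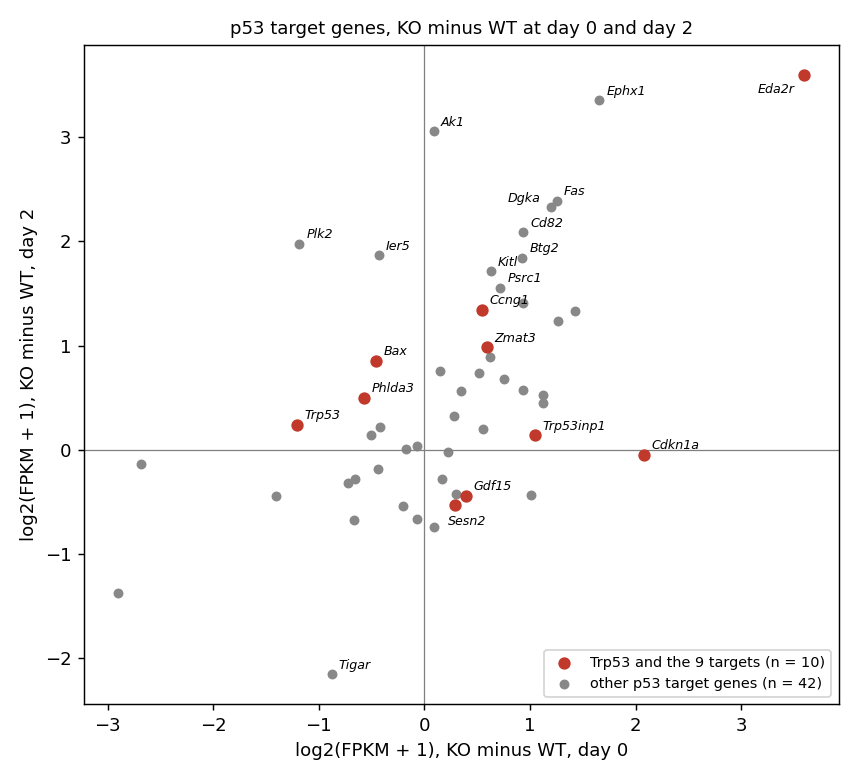
KO minus WT difference in log2(FPKM + 1) at day 0 (x axis) and day 2 (y axis) for Trp53 and the 9 targets (n = 10, red) and 42 other p53 target genes (grey). The red genes and the grey ones over 1.5 from 0 at day 2 are named, and Eda2r and Ephx1 are far to the upper right, with points on all sides of both zero lines.

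Of 27 genes that regulate p53, all tested, 7 were higher in KO, 19 lower and 1 did not pass at day 0, where 38.3% of all genes were higher and 44.2% lower. Their median log2 difference was -0.24 beside -0.06 for all genes. At day 2, 8 were higher, 12 lower and 7 did not pass, where 40.8% of all genes were higher and 40.6% lower, and the median was -0.02 beside 0.00. Whether the list differs from other genes was not tested. Mdm2, both the main brake on p53 and a target of it, was abundant, at 3071 ± 38.4 FPKM in KO day 0 and 2739 ± 12.1 FPKM in WT day 0, and at 3519 ± 51.3 FPKM in KO day 2 and 4274 ± 40.5 FPKM in WT day 2. Its differences of 0.17 at day 0 (adjusted p = 1.69e-05) and -0.28 at day 2 (adjusted p = 1.21e-07) on the log2 scale had the signs of those of Sesn2 and Gdf15.

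Mdm4, which encodes a partner of Mdm2 that blocks the activating domain of p53, was at 82.5 ± 0.872 FPKM in KO day 0 and 38.3 ± 1.13 FPKM in WT day 0, a 2.15-fold higher mean (adjusted p = 7.56e-12). At day 2 it was at 69.8 ± 1.52 FPKM in KO and 59.2 ± 1.71 FPKM in WT, 1.18-fold higher (adjusted p = 1.08e-05). Cdkn2a makes both the kinase inhibitor p16 and, from another reading frame, p19Arf, which sequesters Mdm2, and gene-level values do not separate them. It was at 334 ± 8.33 FPKM in KO day 0 and 304 ± 8.41 FPKM in WT day 0 (1.1-fold higher, adjusted p = 0.000888), and at 311 ± 9.49 FPKM in KO day 2 and 133 ± 2.1 FPKM in WT day 2 (2.34-fold higher, adjusted p = 2.49e-12). Rpl5, a ribosomal protein that can bind Mdm2, was 1.69-fold lower in KO at day 0 (adjusted p = 2.24e-11) and did not pass at day 2 (adjusted p = 0.463). Setd7, a lysine methyltransferase, was 1.14-fold lower at day 0 (adjusted p = 2.79e-05) and 1.73-fold higher at day 2 (adjusted p = 4.16e-11).

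**Figure D5:**
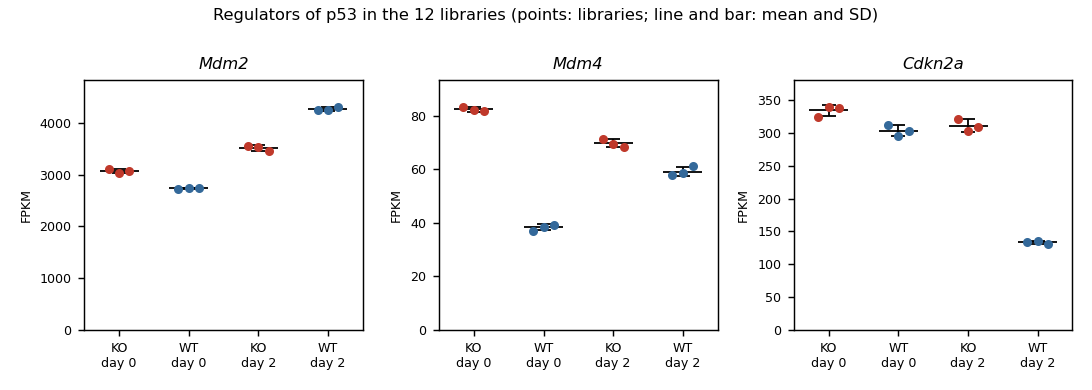
Levels of Mdm2, Mdm4 and Cdkn2a in each library (y axis, FPKM from 0; x axis, the 4 groups). Points are libraries, lines and bars the mean and SD of n = 3. Mdm2 is highest in WT day 2, Mdm4 is lowest in WT day 0 and Cdkn2a is lowest in WT day 2.

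Of the p53 family members, Trp63 was low, at 70 to 90 reads per library in KO day 0, and Trp73 was near absent. Trp63 averaged 1.14 ± 0.053 FPKM in KO day 0 and 0.366 ± 0.0969 FPKM in WT day 0, and 0.440 ± 0.0452 FPKM in KO day 2 and 0.133 ± 0.0532 FPKM in WT day 2. Trp73 was listed at 0 in KO day 0, WT day 0 and WT day 2 and at 0.0729 to 0.107 FPKM in KO day 2. Both were under the filter and were not tested.

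The inhibitors of cyclin-dependent kinases moved in both directions. Of 8 such genes, Cdkn1a and Cdkn2a included, 7 were tested, and 3 were higher and 4 lower in KO at day 0, where 82.4% of all genes passed. At day 2, 3 were higher, 2 lower and 2 did not pass, where 81.4% of all genes passed. Cdkn2b, which encodes p15, was 1.29-fold higher in KO at day 0 (adjusted p = 4.73e-07) and 5.54-fold higher at day 2 (adjusted p = 1.45e-14), at 106 ± 1.35 FPKM in KO and 19.2 ± 0.445 FPKM in WT. Cdkn2c, which encodes p18, was 1.94-fold lower at day 0 (adjusted p = 1.85e-11) and 10.5-fold lower at day 2 (adjusted p = 5.73e-16), at 18.2 ± 0.143 FPKM in KO and 190 ± 1.77 FPKM in WT.

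A further list holds cell division genes that cells can shut down through p21 and the DREAM repressor complex. A part of p21 or DREAM in their levels was not tested. All 16 cell division genes of this list were lower in KO at day 0, like 44.2% of all genes, with a median log2 difference of -4.07 beside -0.06 for all genes. Ccnb1, cyclin B1, was at 2.72 ± 0.0241 FPKM in KO and 88.3 ± 1.65 FPKM in WT at day 0, 32.4-fold lower (adjusted p = 2.47e-16), and Top2a, topoisomerase II alpha, was 15.8-fold lower (adjusted p = 2.72e-16). Mcm5, a subunit of the replicative helicase, was 20.9-fold lower (adjusted p = 1.54e-15), and Birc5, survivin, was 25.3-fold lower (adjusted p = 2.91e-15). At day 2 the list was still lower for 15 of 16, like 40.6% of all genes, Pcna being the higher one. The median was then -1.93, beside 0.00 for all genes. All 16 rose from day 0 to day 2 in KO, like 33.9% of all genes, while in WT 15 fell, like 46.5% of all genes, and Top2a rose.

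Sesn2 is also induced by Atf4, the transcription factor of the integrated stress response. Of 16 genes of that response, all tested, 6 were higher in KO, 8 lower and 2 did not pass at day 0, where 38.3% of all genes were higher and 44.2% lower (median of the list -0.35, beside -0.06 for all genes). At day 2, 12 were lower, 3 did not pass and 1, Ddit4, was higher, where 40.6% of all genes were lower and 40.8% higher (median -1.05, beside 0.00). Asns, asparagine synthetase, was at 129 ± 3.36 FPKM in KO day 0 and 309 ± 2.84 FPKM in WT day 0, and at 100.0 ± 1.14 FPKM in KO day 2 and 398 ± 2.34 FPKM in WT day 2. The serine and one-carbon genes Psat1, Shmt2 and Mthfd2 were 3.12-fold, 2.9-fold and 1.9-fold lower in KO at day 0 (adjusted p = 6.8e-14, 2.56e-13 and 3.46e-13). In the day response of this list 5 genes rose and 11 fell in KO, where 33.9% of all genes rose and 38.8% fell. In WT 11 rose and 3 fell, where 34.2% of all genes rose and 46.5% fell. The interaction was lower in KO for 14 of 16, like 33.0% of all genes. Sesn2 and Gdf15 had the same interaction sign, at -0.81 (SE 0.0473, adjusted p = 1.56e-08) and -0.84 (SE 0.184, adjusted p = 0.00144). So did Cdkn1a at -2.13 and Trp53inp1 at -0.91, and the sign is thus not particular to Sesn2 and Gdf15. At day 0 Sesn2 and Gdf15 were higher in KO. So were 6 of the 16 genes of the list, while 8 were lower and 2 did not pass (median -0.35). A part of Atf4 in the levels of these genes was not tested.

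Bax has relatives that hold cells on either side of death. Of 15 other Bcl2 family genes, 11 were tested, and 5 were higher, 5 lower and 1 did not pass at day 0, while 7 were higher, 3 lower and 1 did not pass at day 2. The shares over all genes were 38.3% higher and 44.2% lower at day 0, and 40.8% higher and 40.6% lower at day 2. Bmf, a death activator released from the cytoskeleton, was at 84.6 ± 0.243 FPKM in KO day 2 and 9.15 ± 0.561 FPKM in WT day 2, 9.24-fold higher (adjusted p = 1.82e-13), after a 2.87-fold higher level at day 0 (adjusted p = 2.32e-10). Bcl2l11, the death activator Bim, was 1.85-fold and 3.24-fold higher (adjusted p = 9.88e-09 and 1.74e-11). Other death genes, chosen after their values were seen, were split: Bok, Bid and Bak1 were lower in KO, while Bad was higher. Bad averaged 47.9 ± 3.26 FPKM in KO day 0 and 38.4 ± 2.13 FPKM in WT day 0. At day 2 it averaged 60.9 ± 2.65 FPKM in KO and 42.5 ± 0.256 FPKM in WT. Bok averaged 1.21 ± 0.398 FPKM in KO day 0 and 16.5 ± 0.606 FPKM in WT day 0 (adjusted p = 4.3e-10), and 2.52 ± 0.459 FPKM in KO day 2 and 25.7 ± 2.52 FPKM in WT day 2 (adjusted p = 4.9e-10). Bid was 3.22-fold lower at day 0 (adjusted p = 3.22e-11) and 1.39-fold lower at day 2 (adjusted p = 3.83e-06), and Bak1 was 1.89-fold lower (adjusted p = 1.13e-08) and 1.21-fold lower (adjusted p = 0.000586). The protective genes differed among themselves. Mcl1 was 1.28-fold lower in KO at day 0 (adjusted p = 4.24e-07) and 2.99-fold higher at day 2 (adjusted p = 3.78e-13), and Bcl2l2 was 2.74-fold higher at day 0 (adjusted p = 1.05e-11) and 1.6-fold higher at day 2 (adjusted p = 9.43e-09). Bcl2 itself did not pass at day 0 (4.83 ± 0.293 FPKM in KO, 5.35 ± 0.0685 FPKM in WT, adjusted p = 0.0746) or at day 2 (1.16 ± 0.0951 FPKM in KO, 1.23 ± 0.0525 FPKM in WT, adjusted p = 0.47).

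Among tested genes with a named symbol, those whose log2 levels ran most like Trp53 over the 12 libraries were Map2k3, a kinase of the p38 pathway (Pearson r = 0.997), the small GTPase gene Arl4c (0.996) and the phosphatase gene Ctdp1 (0.996). Map2k3 averaged 52.6 ± 1.59 FPKM in KO day 0 and 100.2 ± 1.08 FPKM in WT day 0, and 53.9 ± 0.625 FPKM in KO day 2 and 49.2 ± 1.31 FPKM in WT day 2. Most like Cdkn1a were the Notch ligand gene Jag1 (r = 0.996), the fatty acid transporter gene Slc27a1 (0.994) and Csad, an enzyme of taurine synthesis (0.993). Jag1 averaged 36.0 ± 0.943 FPKM in KO day 0 and 16.7 ± 0.201 FPKM in WT day 0, and 32.4 ± 0.486 FPKM in KO day 2 and 35.0 ± 0.811 FPKM in WT day 2. The 12 libraries fall into 4 tight groups, so these correlations describe likeness over 4 levels and carry no test.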

How the data were processed

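RNA-seq values came as 1 table of FPKM that the authors deposited for the 12 libraries. The submitters' processing notes name build mm10 and, with no role stated, MACS2 2.1.0, BWA 0.7.12, HTSeq 0.6.1, TopHat2 2.0.12, Bowtie2 2.2.3, FastQC and CASAVA. Not given in the sources used here are the annotation, the strand setting and the FPKM formula. The 24 MeRIP samples were not analysed here. Columns were matched to samples by the genotype, day and replicate that they name.

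The analysis used log2(FPKM + 1) of genes averaging 1 FPKM or more, with limma 3.58.1 in R 4.3.3 (a mean per group, all 12 libraries, variance trend), and p-values were adjusted by Benjamini-Hochberg over all tested genes within each comparison, with a threshold of 0.05. Ratios are of mean FPKM. In all 30916 genes above 0 the FPKM values were whole multiples of a step (tolerance 0.001 of a read), which gave read numbers. The fit was also run on simulated data in which few genes differed between KO and WT at day 0. Most tested genes differed in the real data, so that run does not bear on the calls made here.

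The 10 genes, the other lists and the tests were chosen with earlier results of these data known. From each list the text names up to 4 genes with the smallest adjusted p in KO against WT, with Mdm2, Mdm4, Cdkn2a, Trp63, Trp73, Zfp217 and the 3 genes most like Trp53 and Cdkn1a. A further gene that this rule names is not reported here. Exceptions to a count, and genes said to be so, were chosen after their values were seen. Alternatives were another pseudocount, filter, scaling, variance model, fold minimum, a replicate block, voom on the recovered reads, and each library left out. Sequences, symbols and positions are from RefSeq, GRCm38.p6.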

Additional observations from a re-analysis of the deposited data

Results flagged for a closer look

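For 9 of the 10 genes the difference between KO and WT differed between the days, by the interaction test of limma with Benjamini-Hochberg adjustment. The estimate, KO day response minus WT day response on the log2(FPKM + 1) scale, was 1.45 for Trp53 (SE 0.0484, adjusted p = 1.03e-10), which rose slightly in KO and fell in WT. It was -2.13 for Cdkn1a (SE 0.0386, adjusted p = 7.06e-13), which fell in KO and rose in WT. For Bax it was 1.31 (SE 0.0387, adjusted p = 3.67e-11) and for Phlda3 1.07 (SE 0.044, adjusted p = 6.59e-10), both lower in KO at day 0 and higher at day 2. For Ccng1 it was 0.79 (SE 0.0524, adjusted p = 5.02e-08) and for Zmat3 0.39 (SE 0.0519, adjusted p = 2.7e-05), whose day response did not pass in KO and was a fall in WT. For Trp53inp1 it was -0.91 (SE 0.0451, adjusted p = 3.8e-09) and for Sesn2 -0.81 (SE 0.0473, adjusted p = 1.56e-08), which rose less in KO than in WT. For Gdf15 it was -0.84 (SE 0.184, adjusted p = 0.00144), at 21 to 67 reads a library. Among all tested genes 73.8% passed this test.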

How the results depend on the processing

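Over 23 settings beside the one reported, 1095 of 1135 values of the 10 genes kept their direction and their side of the threshold, 25 kept the direction and lost the call, 2 gained a call and 13 changed sign. Of the 13, 1 was a change of sign for Cdkn1a at day 2 (0.21 with quantile normalization). In the KO day response Ccng1 turned to 0.0417 and Zmat3 to 0.0102 with median-of-ratios scaling, and with single libraries left out Ccng1 ranged from -0.0397 to 0.0243, above 0 without KO day 2 replicate 3. Gdf15 ranged from -0.0441 to 0.183 in the WT day response, below 0 without WT day 2 replicate 1. The interaction of Eda2r, 0.00 as reported, was -0.0104 with TPM scaling, -0.0245 with median-of-ratios scaling, -0.34 with quantile normalization and -0.0172 to 0.0413 with single libraries left out, below 0 for 5 of them. Apart from the quantile values, those that turned were not past the threshold. The cause was not tested.

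A minimum of 1.5-fold was also added to the threshold, set on the log2(FPKM + 1) scale and not on the ratio of mean FPKM. Gdf15 fell short of it on that scale (0.40 at day 0 and -0.44 at day 2), though its ratios of mean FPKM exceeded it at both days. With this minimum, 4 of the 10 genes were higher and 1 lower in KO at day 0, 4 and 0 at day 2, and 1 and 2 in the KO day response. Over all genes the higher and lower counts then were 2652 and 3047 at day 0, 2939 and 2864 at day 2, 1521 and 1934 in the KO day response, 2278 and 3347 in the WT day response and 3020 and 2281 in the interaction. With a mean of at least 5 FPKM, Gdf15 was not tested and 1 member was lower at day 2. Quantile normalization gave all genes a median of 0.01 in the WT day response, beside -0.11 as reported, more than TPM scaling, median-of-ratios scaling or voom moved a median. The depth limits Gdf15 most.

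The replicate numbers showed no clear pairing of the libraries. Same-numbered libraries had deviations correlated at -0.055 to 0.087 across genes, and for 6 of the 12 the best match had their own number. Each library was compared with all 3 libraries of every other group, so some such matches arise without pairing. This check cannot exclude a small effect shared by libraries of the same number. With the replicate number as a block, 7 members were higher and 3 lower at day 0, as without it, and over all genes 4941 were higher and 5711 lower.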
